A study of Bos taurus with 12 samples.

Results

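PARM1, NPY1R, GFRA1, LHX2, LMO2 and CADPS2 are 6 genes that were selected because they gave high ratios to GV0 on these arrays. They are represented by 8 of the 43794 probes of the array and are 6 of its 15229 gene symbols. NPY1R has 3 probes and each of the other genes has 1, and all 8 probes passed the filter on dim probes. The samples were bovine cumulus cells, the somatic cells around the oocyte, from ovaries collected at a slaughterhouse. They were grouped by the chromatin of the oocyte's germinal vesicle, a series that runs from GV0, with the least condensed chromatin, through GV1 and GV2 to GV3. Each array held amplified RNA of GV1, GV2 or GV3 cells in the Cy5 channel and of GV0 cells in the Cy3 channel, with 4 arrays per stage, each on 1 of the 4 areas of a slide. Each of the 3 slides held 1 stage, so slide and stage cannot be told apart, and GV0 was always in Cy3, so a dye effect cannot be told apart from a difference from GV0. Each RNA was a pool of cells from 10 complexes, and strain, age and animal are not given in the sources used here. The Cy3 signals of an area agreed closely over the 3 slides, and GV0 was therefore treated as 4 pools, numbered by area.

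The 6 genes belong to different parts of a cell. NPY1R encodes a receptor of neuropeptide Y and peptide YY that couples to inhibitory G proteins. GFRA1 encodes the membrane-anchored co-receptor that binds GDNF and presents it to the receptor tyrosine kinase RET. PARM1 encodes a mucin-like membrane protein that was first described in rat prostate. LHX2 is a LIM homeodomain transcription factor. LMO2 is a LIM-only protein that does not bind DNA itself and bridges DNA-binding factors to LDB1, and it is best known from blood stem cells and endothelium. CADPS2 primes dense-core vesicles for calcium-triggered release. In cumulus cells, secreted factors, receptors and gap junctions couple the cells to the oocyte and the follicle.

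Median probe signals were 132 to 230 on the Cy5 side and 277 to 373 on the Cy3 side, and precision is limited by the 4 arrays per stage. All 12 cumulus and granulosa markers, among them FSHR, AMH and FOXL2, passed the filter and exceeded the negative controls on at least 1 array of every group. Of 14 leukocyte markers 8 passed the filter, of which CD14 and AIF1 were not well above background on any GV3 array. Against GV0, limma called 3 of the 8 higher in GV1, 1 in GV2 and 2 in GV3, and 0 lower, where it called 3.78%, 4.59% and 4.3% of all named genes higher. CD68, a macrophage gene, was higher by 0.88, 0.98 and 1.22 on the log2 scale in GV1, GV2 and GV3, calls that held in 13, 21 and 25 of 32 alternatives. FCER1G was called in GV1 and CD3E in GV1 and GV3. PTPRC, expressed on nearly all leukocytes, had ratios of -0.50, -0.25 and -0.14 and did not pass. The part of these markers in the ratios of the 6 genes was not tested. The 12 measured endothelial markers summed to linear levels of 1669 to 1909 in GV1, GV2 and GV3 samples and 1946 to 2132 in GV0 pools. These sums set Cy5 against Cy3 and come from dim probes. Their mean log2 levels were 7.17 to 7.33, against a median of 7.45 over all kept probes in GV0. Limma called 0 of the 12 higher and 3 lower in GV1, 0 and 3 in GV2, and 1 and 2 in GV3. It called 5.69%, 5.73% and 6.7% of all named genes lower. The GV1 array of area 3 stood apart in its theca and stroma markers, whose summed level was 63433, against 11222 to 13317 on the other GV1 arrays. PDGFRA, COL1A2 and COL3A1 were 3.83, 7.16 and 6.67 above GV0 on that array on the log2 scale.

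The first comparison set each stage against GV0. All 6 genes had higher signals in GV1, GV2 and GV3 cells than in GV0 cells on every array, so that 72 of 72 log2 ratios of the brightest probes were above 0. The median of the 6 genes' mean log2 ratios was 1.67 in GV1, 1.70 in GV2 and 1.56 in GV3 (SD of the array medians 0.24, 0.72 and 0.42, n = 4 arrays each). Over all probes the medians were 0.00, -0.00 and 0.00. Of the 24 ratios per stage, 21 in GV1, 20 in GV2 and 20 in GV3 were at least 1, a doubling. These contrasts chose the genes, so their ratios to GV0 are given as a description with no test. Mean ratios of at least 1 were found for 6 of 6 genes in each stage and for 0.44% of the tested probes in GV1, 0.436% in GV2 and 0.576% in GV3. In these pools, fewer cells of a type and less RNA per cell cannot be told apart.

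**Figure D1:**
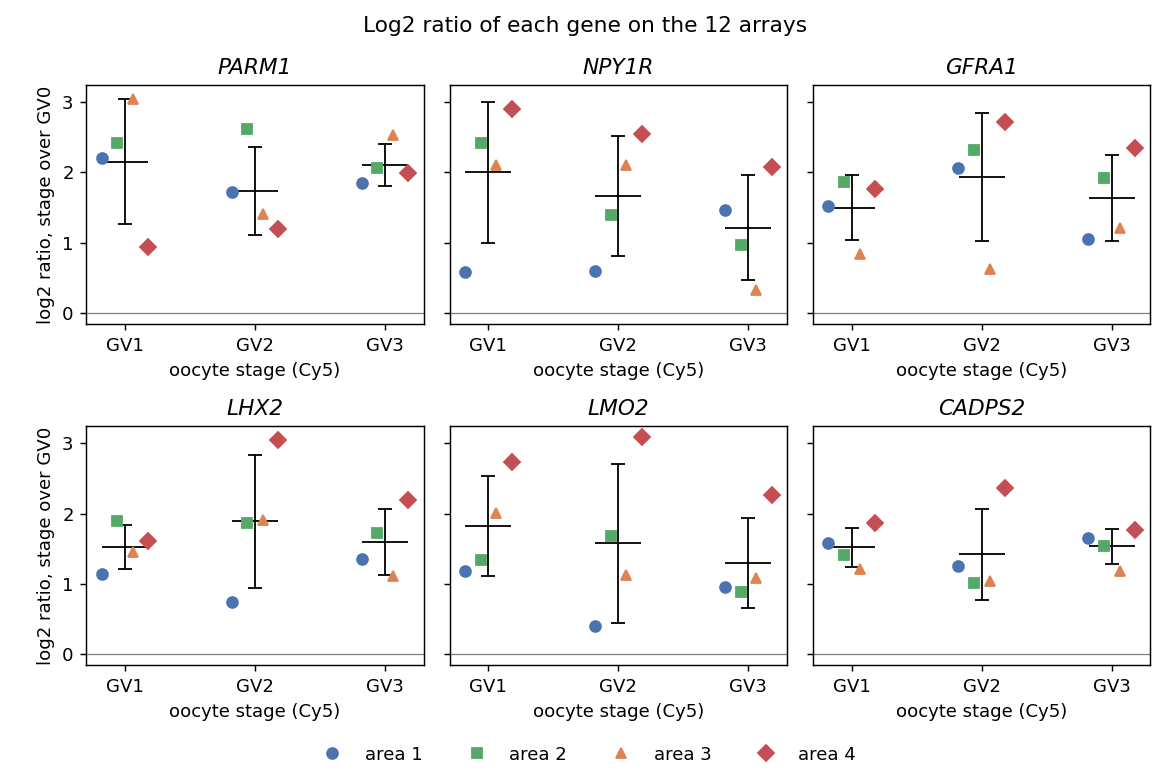
Log2 ratio of the stage over GV0 (vertical axis) for each gene's brightest probe in GV1, GV2 and GV3 (horizontal axis), with 1 point per array, marked by area number, and the mean ± SD of 4 arrays in black. All 72 points lie above 0, and area 4 gives the highest point of NPY1R, LMO2 and CADPS2 in each stage.

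Of the receptor genes, NPY1R had a wider spread than GFRA1 in GV1 and GV3, and GFRA1 in GV2. Its brightest probe, EMBV3_03586, gave log2 ratios of 0.58, 2.42, 2.11 and 2.90 on the GV1 arrays of areas 1 to 4. On the GV2 arrays the NPY1R ratios were 0.60, 1.39, 2.10 and 2.55, and on the GV3 arrays they were 1.47, 0.97, 0.32 and 2.08. The means were 2.00 ± 1.00 in GV1, 1.66 ± 0.85 in GV2 and 1.21 ± 0.74 in GV3 (SD, n = 4 each). Area 4 was highest in every stage, area 1 was lowest in GV1 and GV2, and the lowest value of all was area 3 of GV3. In that last array the NPY1R Cy5 level, 8.03, lay inside the range of the 4 GV0 pools, 6.94 to 8.69. The ratios of area 4, the highest, rest on NPY1R Cy3 signals near background. These were 283, 313 and 284 on the GV1, GV2 and GV3 arrays, against negative-control thresholds of 278, 310 and 295. The Cy3 signal of GV3 area 4 was thus not well above background.

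The other NPY1R probes were dimmer. Probe EMBV3_33941 had means of 0.43 ± 0.12 in GV1, 0.37 ± 0.21 in GV2 and 0.36 ± 0.13 in GV3 (SD, n = 4 each), above 0 on all 12 arrays. Its Cy5 signal was above background on every array, and its GV0 signal on 3, 4 and 2 of 4 arrays in GV1, GV2 and GV3. Probe EMBV3_17890 had Cy5 signals above background on 2, 3 and 2 of 4 arrays in GV1, GV2 and GV3 and was not well above background in GV0 on any array, so no size is given for it.

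GFRA1 gave log2 ratios of 1.52, 1.86, 0.84 and 1.77 on the GV1 arrays of areas 1 to 4. Its ratios were 2.06, 2.32, 0.62 and 2.71 in GV2, and 1.05, 1.92, 1.21 and 2.35 in GV3. The GFRA1 means were 1.50 ± 0.46, 1.93 ± 0.91 and 1.63 ± 0.61 in GV1, GV2 and GV3 (SD, n = 4 each). Area 3 was the lowest in GV1 and GV2, where the GFRA1 level of GV0 pool 3 was the highest of the pools. Of the 36327 kept probes, 30 had a higher mean ratio than GFRA1 in GV1, 5 in GV2 and 13 in GV3.

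PARM1, the mucin-like membrane protein, had the highest mean of the 6 genes in GV1 and GV3. Its log2 ratios were 2.20, 2.42, 3.05 and 0.94 in GV1, 1.72, 2.62, 1.41 and 1.19 in GV2, and 1.84, 2.06, 2.53 and 1.99 in GV3. The means were 2.15 ± 0.88, 1.74 ± 0.63 and 2.11 ± 0.30 (SD, n = 4 each), and 5, 13 and 3 probes of the array had a higher mean in GV1, GV2 and GV3. Area 4 was lowest for PARM1 in GV1 and GV2, unlike NPY1R, LMO2 and CADPS2, where it was highest. The highest PARM1 ratio, 3.05, was on the GV1 array of area 3 with the high stroma markers. Without area 3 the GV1 mean was 1.86, and the part of the stroma markers in the PARM1 ratio was not tested.

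Of the LIM-domain genes, LHX2 had log2 ratios of 1.14, 1.89, 1.45 and 1.61 on the GV1 arrays, in the order of areas 1 to 4. In GV2 the LHX2 ratios were 0.74, 1.87, 1.90 and 3.04, and in GV3 they were 1.35, 1.72, 1.11 and 2.19. The means were 1.52 ± 0.31 in GV1, 1.89 ± 0.94 in GV2 and 1.59 ± 0.47 in GV3 (SD, n = 4 each). The GV2 arrays spread most, with area 1 lowest and area 4 highest.

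LMO2 had log2 ratios of 1.18, 1.35, 2.01 and 2.74 in GV1, 0.40, 1.68, 1.13 and 3.09 in GV2, and 0.95, 0.89, 1.09 and 2.26 in GV3. Its means were 1.82 ± 0.71, 1.58 ± 1.14 and 1.30 ± 0.64 (SD, n = 4 each). Area 4 was highest in every stage, and in GV3 the other 3 arrays lay within 0.89 to 1.09. Without area 4 the LMO2 means were 1.51 in GV1, 1.07 in GV2 and 0.98 in GV3.

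CADPS2, the vesicle-priming factor, had the smallest spread of the 6 genes in GV1 and GV3. Its log2 ratios were 1.59, 1.41, 1.21 and 1.86 in GV1, 1.26, 1.01, 1.04 and 2.37 in GV2, and 1.65, 1.53, 1.18 and 1.77 in GV3. The means were 1.52 ± 0.28, 1.42 ± 0.64 and 1.53 ± 0.25 (SD, n = 4 each). All 12 CADPS2 ratios were above 1. Area 4 was highest in every stage, and by most in GV2.

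The channel levels showed how far the groups overlapped. A level is the normalised log2 signal of 1 channel and is compared only within a gene. For PARM1 the mean levels along the series were 8.10 ± 0.53 in GV0, 10.24 ± 0.54 in GV1, 9.85 ± 0.49 in GV2 and 10.21 ± 0.68 in GV3 (SD, n = 4 pools or arrays). For NPY1R they were 7.97 ± 0.81 in GV0, 9.98 ± 0.70 in GV1, 9.70 ± 0.32 in GV2 and 9.11 ± 0.87 in GV3. Both genes were lowest in GV0, and their GV1 to GV3 levels lay within about the spread of the arrays.

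The GFRA1 levels were 10.17 ± 0.75 in GV0, 11.67 ± 0.38 in GV1, 12.07 ± 0.40 in GV2 and 11.83 ± 0.34 in GV3. The LHX2 levels were 7.76 ± 0.42, 9.28 ± 0.49, 9.64 ± 0.71 and 9.37 ± 0.17 in GV0, GV1, GV2 and GV3. Each of these genes peaked in GV2 by less than the spread between arrays. The LMO2 levels were 8.97 ± 0.72 in GV0, 10.75 ± 0.44 in GV1, 10.55 ± 0.63 in GV2 and 10.29 ± 0.16 in GV3. The CADPS2 levels were 8.23 ± 0.49, 9.75 ± 0.29, 9.70 ± 0.19 and 9.71 ± 0.40 in GV0, GV1, GV2 and GV3. CADPS2 was the most even of the 6 genes over the later stages.

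All 4 Cy5 levels lay above all 4 GV0 pools for 6 of 6 genes in GV1, 6 of 6 in GV2 and 5 of 6 in GV3, where NPY1R overlapped. The same held for 6.5% of the tested probes in GV1, 6.92% in GV2 and 6.69% in GV3. The contrasts are those that chose the genes, and nothing is read from these shares.

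**Figure D2:**
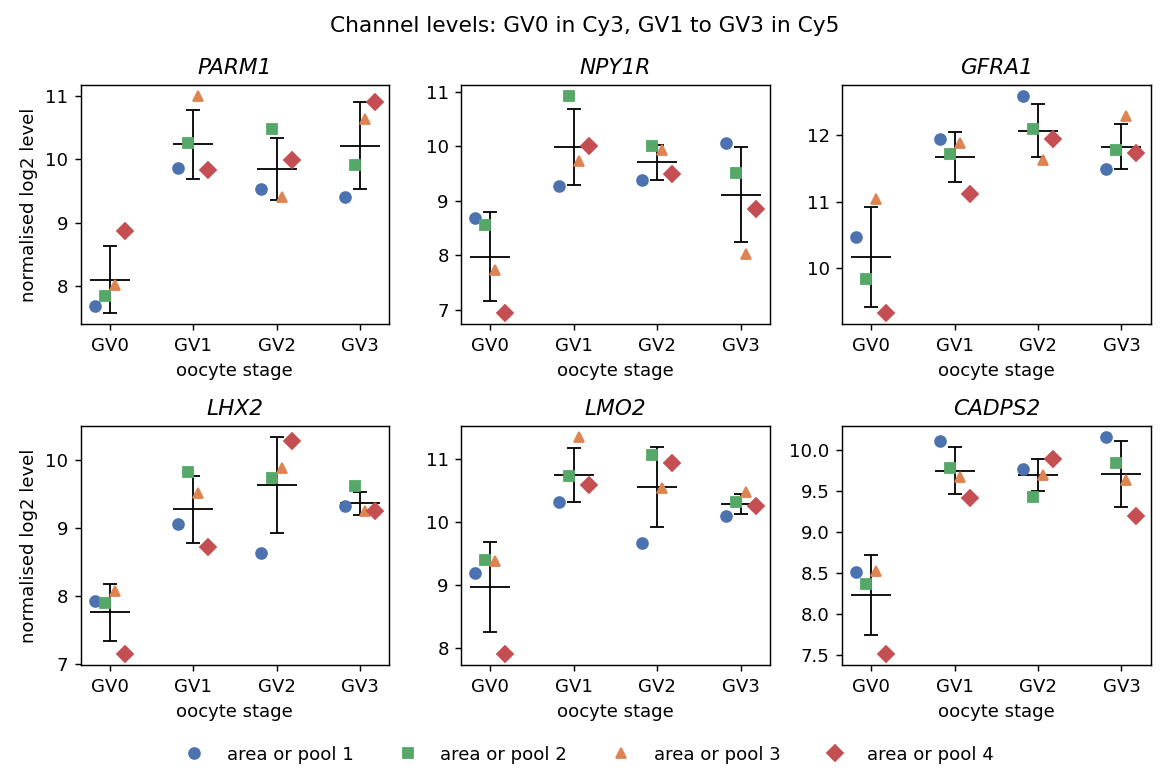
Normalised log2 level (vertical axis, scaled for each gene) in the stage series GV0 to GV3 (horizontal axis), GV0 from Cy3 as 4 pools averaged over 3 slides and GV1 to GV3 from Cy5 as 4 arrays, with mean ± SD in black. The GV0 points lie below the later stages for every gene, except that 1 GV3 array of NPY1R falls inside the GV0 range of 6.94 to 8.69.

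The GV0 pools themselves differed for these genes. The SD between the 4 pools was 0.42 for LHX2 to 0.81 for NPY1R, whereas the SD of 1 pool over its 3 slides was 0.05 for GFRA1 to 0.11 for NPY1R. NPY1R levels were 8.69, 8.55, 7.72 and 6.94 in pools 1 to 4, and GFRA1 levels were 10.47, 9.84, 11.05 and 9.33. LHX2 had 7.93, 7.90, 8.07 and 7.14, LMO2 had 9.19, 9.40, 9.38 and 7.90, and CADPS2 had 8.51, 8.37, 8.52 and 7.50. Pool 4 was the lowest pool for these 5 genes, as it was for 25.9% of all kept probes. PARM1 went the other way, with levels of 7.68, 7.85, 8.01 and 8.87, and pool 4 was its highest, as for 24% of all probes.

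The gap between pool 4 and the mean of the other pools was -1.42 for LMO2, -1.38 for NPY1R, -1.13 for GFRA1, -0.97 for CADPS2 and -0.83 for LHX2 on the log2 scale. For PARM1 it was 1.02, and 0.62 with median spot signals. In pool 4 the NPY1R Cy3 signals lay near background, and those of LHX2 were 295, 337 and 304 on the GV1, GV2 and GV3 slides. The negative-control thresholds there were 278, 310 and 295. Gaps at least as low as that of LMO2 occurred in 0.234% of the probes and gaps at least as low as that of LHX2 in 1.84%, while 2.21% had a gap at least as high as that of PARM1. These shares are over all kept probes, dim ones included. The GV0 levels are part of the ratios that chose the genes, so nothing is read from the shares or from the order of the pools. The summed level of the 8 measured leukocyte markers was 6851 to 7936 in the Cy3 channel of area 4 and 1252 to 4567 in the other areas. In the Cy5 channel area 4 also had the highest sum of each stage, 3580 in GV1, 5522 in GV2 and 4996 in GV3. The theca and stroma markers were lowest in pool 4, at 11854 to 12677, against 13173 to 14785 in the other pools. The summed cumulus and granulosa markers were highest in pool 3, at 106105 to 111619, against 61845 to 85125 in the other pools. The part of any of these marker lists in the levels of the 6 genes was not tested.

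**Figure D3:**
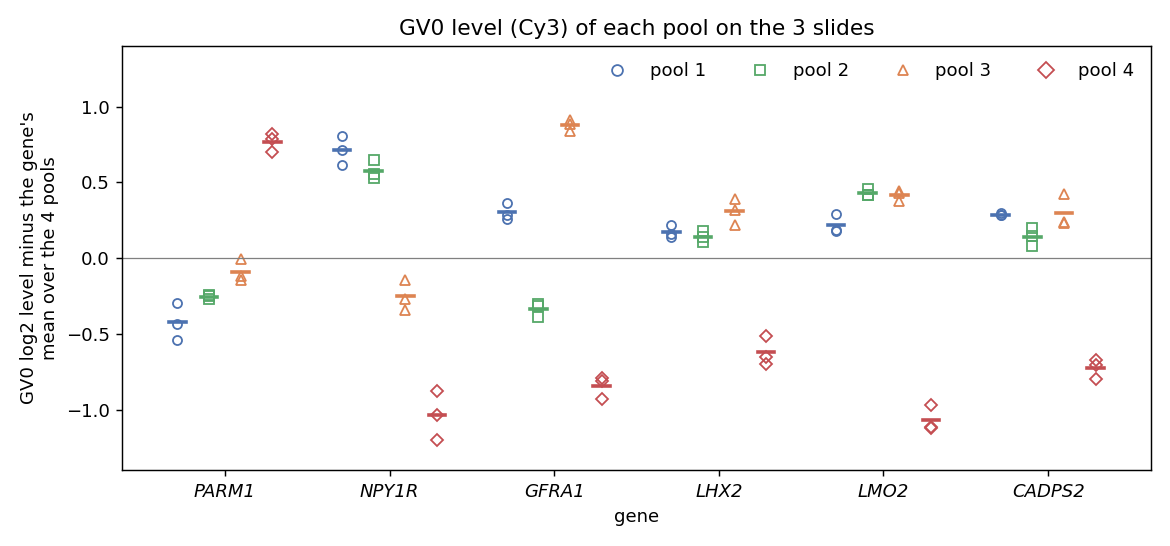
GV0 level of each gene (horizontal axis) in the 4 pools, as the Cy3 log2 level minus the gene's mean over the pools (vertical axis), with 1 open point per slide and a bar at the pool's mean over 3 slides. Pool 4 is the lowest for 5 genes and the highest for PARM1, and the slides of a pool lie close together.

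The area number carried over into the ratios. Within stages, the area accounted for 85.3% of the variation of the ratio for LMO2, 79.2% for GFRA1, 73.8% for CADPS2, 65% for LHX2, 58.9% for NPY1R and 50.7% for PARM1, against a median of 63.6% over all probes. In the Cy5 level alone the same share was 57% for LMO2, 48.5% for CADPS2, 36.7% for LHX2, 34.2% for PARM1, 33.8% for NPY1R and 23.4% for GFRA1. The Cy5 share over all probes was not computed, so nothing is read from these values. The mean LMO2 ratio over the 3 stages was 2.69 in area 4, 0.85 in area 1, 1.31 in area 2 and 1.41 in area 3. The mean PARM1 ratio was 1.38 in area 4 and between 1.92 and 2.37 in the others.

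The second comparison asked whether the 6 genes differ among GV1, GV2 and GV3. In these differences GV0 and the dye cancel. None of the 6 genes and 0% of the 36327 probes passed limma's test at an adjusted p of 0.05 in GV2 against GV1, in GV3 against GV1 or in GV3 against GV2. At an unadjusted p under 0.05 there were 411, 684 and 1097 probes, with none of the 6 genes among them. With the area number as a block, limma called 0 probes in each contrast as well.

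The largest difference was that of NPY1R, whose ratio was lower in GV3 than in GV1 by 0.79 on the log2 scale (95% interval of the difference without the area block -2.03 to 0.45, limma adjusted p = 1.00, lower in 3 of 4 areas). LMO2 was lower in GV3 than in GV1 in 4 of 4 areas, by 0.23, 0.45, 0.92 and 0.48, with a mean difference of -0.52 (-1.74 to 0.70). With the area block its interval was -1.07 to 0.03, its unadjusted p 0.0607 and its adjusted p 0.650 in limma. GFRA1 was higher in GV2 than in GV1 by 0.43 (-0.55 to 1.41), in 3 of 4 areas. LHX2 was higher in GV2 than in GV1 by 0.37 (-0.54 to 1.27), in 2 of 4 areas. With the area block the intervals were -1.71 to 0.12 for NPY1R, -0.09 to 0.96 for GFRA1 and -0.25 to 0.99 for LHX2. The intervals without the block keep the differences between areas in the error and were wider.

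PARM1 differed by -0.42 between GV2 and GV1 (-1.34 to 0.51), where area 3 alone gave -1.63, and by -0.05 between GV3 and GV1 (-0.97 to 0.88). CADPS2 had the narrowest intervals. Its GV3 and GV1 ratios differed by 0.01 (-0.60 to 0.63) and its GV3 and GV2 ratios by 0.11 (-0.50 to 0.73). Across the 18 differences the intervals reached from 0.62 to 1.24 on either side without the area block and from 0.38 to 0.91 with it, and all 18 included 0 in both fits.

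**Figure D4:**
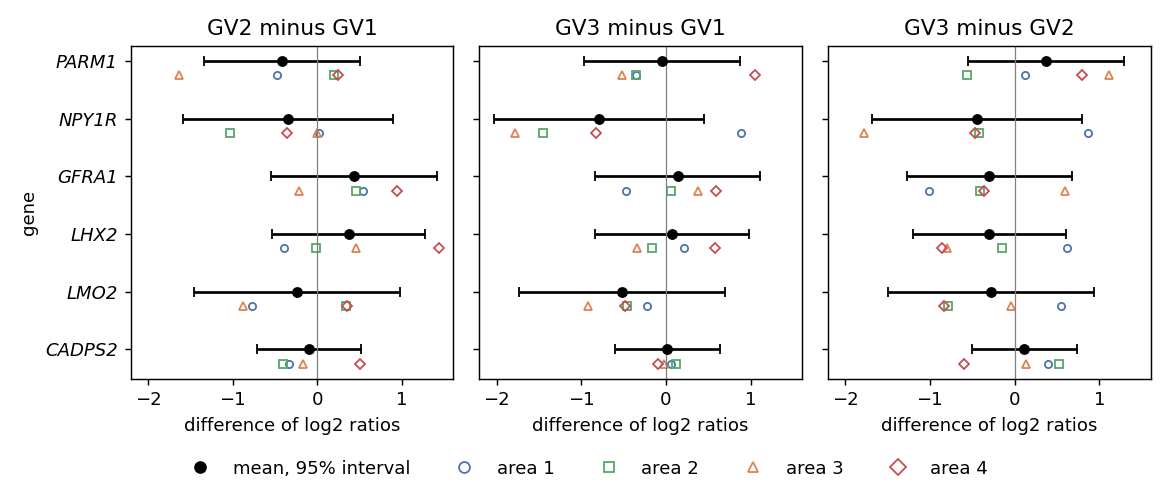
Differences of the log2 ratio between the stages GV1, GV2 and GV3 (horizontal axis) for each gene (vertical axis). The mean and its 95% interval from limma without the area block are in black, with the 4 areas as open points below. Each of the 18 intervals includes 0, and the 4 LMO2 areas lie below 0 for GV3 minus GV1.

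The genes did not move as 1 group from array to array. Over the 12 arrays, which share 4 GV0 pools and 3 slides, the 15 pairwise Pearson correlations of the ratios lay between -0.59 and 0.76. PARM1 was negatively correlated with each of the other 5 genes, from -0.22 with GFRA1 to -0.59 with CADPS2. The highest correlations were 0.76 between NPY1R and LMO2, 0.73 between LHX2 and LMO2 and 0.68 between NPY1R and LHX2. The GV0 channel gave correlations between -0.94 and 0.96 (median 0.74) and the Cy5 channel gave -0.57 to 0.60 (median 0.13). In Cy5 the highest pair was LHX2 and LMO2 at 0.60, and PARM1 and LMO2 stood at 0.55 with the opposite sign to their ratios, whose correlation was -0.32.

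Among 13454 other genes, those whose ratios followed each gene most closely over the 12 arrays mostly had small mean ratios. Ratios of RXYLT1, a glycosyltransferase gene, correlated with those of GFRA1 at 0.96 and those of the immune transcription factor gene IKZF3 and the immunoproteasome subunit gene PSMB10 at 0.91 and 0.90. PRSS58 correlated with CADPS2 at 0.95, and ACADM, an enzyme of fatty acid oxidation, and PLEKHF2 at 0.93 each. UBXN8, BCAT1, an enzyme of branched-chain amino acid breakdown, and the deubiquitinase gene YOD1 correlated with LMO2 at 0.93, 0.92 and 0.91. The mean ratios of these 9 genes lay between -0.05 for BCAT1 in GV3 and 0.66 for PSMB10 in GV2.

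For LHX2 the closest genes were LOC100335253 at 0.93, RHEB, an activator of mTORC1, at 0.92 and the chromatin remodeller gene SMARCA5 at 0.90. SMARCA5 had mean ratios of 0.56, 0.78 and 0.42 in GV1, GV2 and GV3. For NPY1R they were TAF2, a subunit of the general transcription factor TFIID, at 0.93, PLSCR1 at 0.88 and the kinetochore gene CENPN at 0.87. PLSCR1 was the one of these with mean ratios of 0.92, 0.73 and 0.70, while CENPN had -0.32, -0.35 and -0.87. For PARM1 they were LOC100295797 at 0.93, ANTXR1 at 0.87 and TTF1 at 0.86, and LOC100295797 had mean ratios of -1.05, -1.19 and -1.02. The ratios of a gene pair share the GV0 pools and slides. In the Cy5 channel alone, correlations in these pairs ran from 0.04 for BCAT1 with LMO2 to 0.77 for RXYLT1 with GFRA1. In the Cy3 channel they ran from 0.26 for ANTXR1 with PARM1 to 0.96 for PLEKHF2 with CADPS2. The genes named are the 3 highest of 13454 for each member, and no chance level was computed.

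The partners of each receptor and factor were read from lists of related genes. Of the named genes with a representative probe, limma called 3.78% higher and 5.69% lower in GV1, 4.59% and 5.73% in GV2, and 4.3% and 6.7% in GV3, against GV0. Of 12 measured genes of the GDNF and RET list, 1 rose and 2 fell in each stage, with median log2 ratios of -0.09, -0.11 and -0.12, against 0.00, 0.00 and -0.01 over all genes. SPRY2, a feedback inhibitor of receptor tyrosine kinase signalling, rose by 1.51 in GV1, 1.55 in GV2 and 1.39 in GV3 (SE 0.28, limma adjusted p = 0.00922, 0.00771 and 0.0112), on all 12 arrays. The SPRY2 call was lost without area 2 in GV1 (1.17), without area 3 in GV2 (1.44) and without area 1 or 3 in GV3 (1.18 and 1.50), with adjusted p up to 0.0996 over its 32 alternatives. GAS1, a membrane-anchored relative of the GFRA co-receptors, was called lower in all 3 stages, with its Cy5 signal above background on 2, 1 and 1 of 4 arrays in GV1, GV2 and GV3, so that no size is given. DOK4, an adaptor of RET, fell by 0.26, 0.29 and 0.31, calls that held in 21, 25 and 29 of 32 alternatives, and its GV1 sign turned under 2 of them, with ratios of 0.145 with median signals and 0.130 in the series matrix. RET itself had ratios of 0.02, -0.15 and -0.12 and the ligand gene GDNF -0.08, 0.07 and 0.15, none of which passed the test. With the area block GDNF was called higher in GV3 (limma adjusted p = 0.0413), where its Cy5 signal was above background on 1 of 4 arrays and its GV0 signal on 0 of 4.

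Of 8 measured genes of the neuropeptide Y list, 1 rose in GV1 and none passed in GV2 or GV3, and none fell (medians 0.00, -0.13 and -0.09). NPY5R, a second receptor of the peptide and the gene next to NPY1R in the bovine gene table, rose by 1.10 in GV1 (SE 0.30, limma adjusted p = 0.0383, higher on 4 of 4 arrays). Its ratios of 0.68 and 0.69 in GV2 and GV3 did not pass (adjusted p = 0.166 and 0.158). The GV1 call held in 17 of 32 alternatives, over which its adjusted p ran from 0.00480 to 0.216, and it was lost without area 2 (0.83), area 3 (1.13) or area 4 (1.04). With the area block, NPY5R and PRCP, a peptidase gene, were called higher in all 3 stages, and 1 gene of the list was called lower in each. The NPY5R adjusted p was then 0.00480, 0.0318 and 0.0299 in limma. The block fit takes differences between areas out of the error. In this and the other lists, its p-values against GV0 therefore do not measure the spread between pools. That fit called 14.7% of the named genes higher and 15% lower in GV1, 15.7% and 14.1% in GV2, and 14.7% and 16.1% in GV3, shares against which its counts for this and the following lists stand.

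Of 16 measured genes of the LIM and LDB list, 0 rose and 3 fell in GV1, 0 and 1 in GV2, and 1 and 3 in GV3 (medians -0.02, 0.02 and -0.01). SSBP2, which encodes a stabiliser of LDB proteins, fell by 0.50, 0.82 and 0.73 in GV1, GV2 and GV3 (SE 0.14), calls that held in 13, 28 and 28 of 32 alternatives. LDB2 fell by 0.28 in GV1 and SSBP4 by 0.81 in GV3, held in 19 and 23 of 32. The LIM homeodomain gene LHX6 was called lower in GV1 and GV3, with its Cy5 signal above background on 1 and 0 of 4 arrays, so that no size is given, and the calls held in 14 and 16 of 31 alternatives. LMO4, a LIM-only relative of LMO2, rose by 1.00 in GV3 (SE 0.27, limma adjusted p = 0.0377), and its call held in 19 of 32 alternatives (adjusted p 0.00107 to 0.191) and was lost without any 1 of the 4 areas (0.82 to 1.19). With the area block the counts were 2 higher and 4 lower in GV1, 1 and 4 in GV2, and 2 and 3 in GV3.

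Of 11 measured partners of LMO2 in blood and endothelial cells, 0 rose and 2 fell in GV1, 0 and 3 in GV2, and 1 and 2 in GV3 (medians -0.03, -0.01 and -0.02). GATA2 was called lower in GV1 and GV2, KLF1 in GV2 and GV3, LYL1 in GV2 and TAL1 in GV3. In each of these calls the Cy5 signal was above background on at most 1 of 4 arrays, so that no size is given. ERG, an endothelial transcription factor, rose by 0.19 in GV3, a call that held in 19 of 32 alternatives. The counts with the area block were 0 higher and 4 lower in GV1, 2 and 3 in GV2, and 1 and 4 in GV3. LDB1, the protein that LMO2 binds directly, had ratios of 0.32, 0.12 and 0.13 and did not pass.

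Of 22 measured genes of dense-core vesicle release, the setting of CADPS2, 0 rose in any stage and 2, 2 and 1 fell in GV1, GV2 and GV3 (medians -0.14, -0.06 and -0.13). PAM, which amidates peptide hormones, fell by 1.12, 0.99 and 1.37 (SE 0.28, limma adjusted p = 0.0301, 0.0449 and 0.0116). These PAM calls held in 20, 11 and 25 of 32 alternatives, over which the adjusted p reached 0.193, and each was lost without area 2, 3 or 4. SCG5, a chaperone of a prohormone convertase, fell by 0.76 in GV1 and 0.61 in GV2, and each call held in 21 of 32 alternatives. CADPS, the paralog of CADPS2, had ratios of -1.39, -1.12 and -1.78 (SE 0.69, adjusted p = 0.217, 0.327 and 0.118) and did not pass, with 1 GV1 and 1 GV2 array above 0, both in area 4. With the area block CADPS was called lower in all 3 stages, and the list had 3 higher and 9 lower in GV1, 1 and 5 in GV2, and 2 and 6 in GV3.

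Of 10 measured mucin-like membrane proteins other than PARM1, 0 rose and 2 fell in GV1, 1 and 3 in GV2, and 0 and 2 in GV3 (medians 0.02, 0.02 and -0.02). GYPC, a glycophorin, fell by 0.56, 0.48 and 0.49 in GV1, GV2 and GV3, and each call held in 29 of 32 alternatives. MUC20 fell by 0.43 and 0.37 in GV1 and GV2, with its Cy5 signal above background on 3 of 4 arrays. MUC4 was called lower in GV2 and GV3, where its Cy5 signal was not well above background on any array, and GLYCAM1 was called higher in GV2, where GV0 exceeded background on 1 of 4 arrays only, so that no size is given for either. The MUC4 calls held in 19 and 6 of 31 alternatives and the GLYCAM1 call in 8 of 31. The counts with the area block were 1 higher and 2 lower in GV1, 2 and 3 in GV2, and 1 and 3 in GV3. CD164, a sialomucin, had ratios of 0.59, 0.73 and 0.70, with limma adjusted p of 0.108, 0.0524 and 0.0617 without the block and of 0.00177, 0.000637 and 0.000661 with it.

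**Figure D5:**
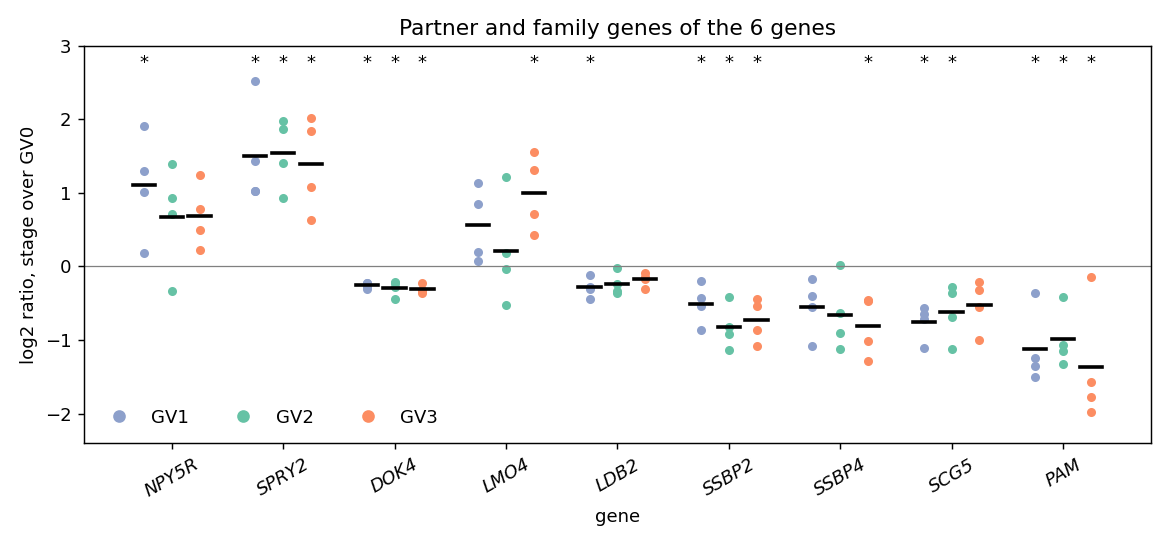
Log2 ratio of the stage over GV0 (vertical axis) of 9 related genes (horizontal axis) that limma called in at least 1 stage, with 1 point per array, a black bar at the mean of 4 arrays and a star where the adjusted p was under 0.05. Of the 9 genes shown, SPRY2 is the one called higher in all 3 stages, and PAM, SSBP2 and DOK4 are called lower in all 3. The GV1 sign of DOK4 turned under 2 alternatives. The 9 are a selection, and other called genes are not shown, among them GYPC and GAS1, called lower in all 3 stages.

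The protein-coding genes beside the 6 genes were read from the RefSeq gene table, with 2 on either side. Of 24 neighbours 19 were measured, of which limma called 4 higher and 0 lower in GV1, 1 and 1 in GV2, and 2 and 0 in GV3. Of all named genes it called 3.78% higher and 5.69% lower in GV1, 4.59% and 5.73% in GV2, and 4.3% and 6.7% in GV3. NPY5R, called in GV1, was already counted in the neuropeptide Y list. Their log2 ratios lay between -0.34 and 1.10 in GV1. BBS7, a gene of the ciliary BBSome on the other side of NPY1R from NPY5R, rose by 0.68, 0.74 and 0.54 in GV1, GV2 and GV3. These BBS7 calls held in 21, 22 and 13 of 31 alternatives. The PARM1 neighbours AREG and BTC, which encode ligands of the EGF receptor, had GV1 ratios of -0.23 and -0.26, and neither passed in any stage.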

How the data were processed

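The deposited scanner tables of the 12 arrays hold, per the file headers, spot and background intensity in both channels without normalisation, and a flag of another kind (0 or 1 per spot) whose rule is not given in the sources used here. The deposited series matrix holds log2 ratios made by the authors and served as an alternative. Background was corrected with normexp (offset 50) on mean signals without flagged spots. Ratios were normalised with loess within arrays and channel levels with Aquantile between arrays, in limma 3.58.1 under R 4.3.3 (statmod 1.5.0). A probe passed the filter if either channel was brighter than the negative controls (153 spots, mean plus 2 SD) on at least 3 of the 4 arrays of any stage, which left 36327 of 43794.

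One limma model with a coefficient per stage was fitted over the 12 arrays (9 residual degrees of freedom), with Benjamini-Hochberg adjustment over all kept probes. An adjusted p under 0.05 counted as called. Without the area block, the p-values measure the spread between pools, which no label ties to separate animals. With the block, differences between areas are taken out of the error, and the p-values against GV0 do not measure the spread between pools. The arrays share GV0 pools, so p-values against GV0 may run low.

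The area numbers pair the arrays. Cy3 signals of an area correlated between 0.989 and 0.997 over the slides, against 0.933 to 0.971 for different areas. Deviations of the ratios from the stage means correlated between 0.493 and 0.735 in the 12 pairs of the same area. The pairing comes from these values, since no label states it.

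The series matrix values correlated at 1.00 across probes with loess ratios of the median signals on every array, with the direction stage over GV0. Its array medians lay between -0.01 and 0.00.

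The brightest kept probe stands for its gene. Gene names came from the platform annotation and the RefSeq gene table of ARS-UCD2.0, in which 14114 of 15229 symbols were current, 982 were renamed and 133 were not matched. The files name no genome build, so coordinates are not printed. Named were the 6 genes, the 3 genes most like each, and per list at most the 5 called genes with the smallest p. The 6 genes, the lists and the tests were chosen with earlier results of these data known. The model was tested on simulated data. Alternatives covered the signal column, background correction, flagged spots, normalisation, filter, probe choice, the replicate block, robust fitting and leaving out arrays.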

Additional observations from a re-analysis of the deposited data

Results flagged for a closer look

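Of 56 groups of 4 values checked for a value far from the others, 3 stood out, close to the share of about 1 in 20 that chance gives. The LMO2 ratio of the GV3 array of area 4 was 2.26, against 0.89 to 1.09 on the other GV3 arrays. The LMO2 level of GV0 pool 4 was 7.90, against 9.19 to 9.40 in the other pools, and the CADPS2 level of GV0 pool 4 was 7.50, against 8.37 to 8.52. All 3 values rest on the same GV0 pool, so they are not independent. The leukocyte markers of that pool summed to 6851 to 7936 in Cy3, and their Cy5 sums were also highest in area 4. The part of those markers was not tested.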

How the results depend on the processing

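The mean ratios of the 6 genes were recomputed under 537 combinations of gene, stage and alternative: 528 moved by less than 1 SD between arrays, 9 moved further and 0 changed sign. The medians of the 6 genes stayed within 1.48 to 1.84 in GV1, 1.43 to 1.93 in GV2 and 1.25 to 1.70 in GV3. Under none of 573 alternatives was a difference between the later stages called for any of the 6 genes, and 43 uncalled differences changed sign. With the replicate block 0 members were called in each difference, and the calls of members between stages did not change. Over all probes, calls against GV0 numbered 3935, 4271 and 4396 in GV1, GV2 and GV3. With the replicate block they were 10710, 10806 and 10885, with median signals 280, 442 and 766, with flagged spots in the background fit 165, 396 and 5303, with the series matrix 305, 505 and 743, and with both channels above background on all arrays 1020, 1139 and 1742. With only the arrays of 1 stage in the fit they were 0 in each, with 3 residual degrees of freedom. Leaving out arrays gave 1007 to 3881 in GV1, 1196 to 3906 in GV2 and 1416 to 4383 in GV3, and in 1 case (without GV2 replicate 4) 1 probe was called between GV3 and GV2. DOK4 in GV1 had a ratio of 0.145 with median signals and 0.130 in the series matrix, and GATA1 in GV1 had 0.000466 in the series matrix, with the sign turned and no call; the cause was not tested. Under 18 alternatives chosen after seeing the data the gap of GV0 pool 4 kept its sign in 18. It moved further than the SD between the other GV0 pools in 7, and for PARM1 (1.02) it ran from 0.62 to 0.94. For related genes, 1504 of 2270 recomputed calls held and 3 ratios changed sign. In GV0, NPY1R probe EMBV3_17890 was not well above background on any array.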
